A study of Mus musculus with 12 samples.

Results

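The cytosolic RNA sensors of mouse macrophages were examined as a set of 8 genes, chosen by symbol from the 46078 gene identifiers of the count files. The 8 genes were Ddx58 (RIG-I), Ifih1 (MDA5), Dhx58 (LGP2), Mavs, Eif2ak2 (PKR), Adar, Ddx60 and Trim65. Each symbol matched a single identifier, and all 8 passed the filter on low counts. The rule is a list of symbols with no threshold on a measured value, but the list was drawn up with earlier results of these data known. Messenger RNA had been sequenced from 12 libraries of bone marrow-derived macrophages in 4 groups of 3, which crossed Dicer KO or control genotype with lipopolysaccharide (LPS) or vehicle. LPS is a bacterial cell wall component that activates the receptor TLR4.

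All donors were male C57BL/6 mice labelled ApoE-/-, a background that the controls share per the labels. Dicer KO animals are labelled LysMcre/+;Dicerfl/fl;ApoE-/-, in which Cre recombinase expressed from the LysM (Lyz2) locus of myeloid cells deletes floxed Dicer1, the gene of the enzyme that makes mature microRNAs. Their littermate controls are titled LysMcre/+;Dicer+/+;ApoE-/-, whereas a second label field calls them wildtype. Marrow cells were grown for 7 days with 30% L929 cell supernatant, kept overnight with diluted ethanol, and given phosphate-buffered saline (vehicle) or LPS, labelled as 100 ng/ul, for 6 h. Separate mice for the 3 libraries of a group are not stated in the labels, and the p-values therefore rest on a spread between libraries that may be technical.

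Each library held 16172600 to 18886948 reads assigned to genes. With vehicle, Dicer1 was at 43.7 ± 1.44 CPM (SD, n = 3) in controls against 19.7 ± 0.369 CPM after deletion, and with LPS at 49.4 ± 2.84 against 15.5 ± 1.10 CPM. CPM is the read count relative to the library size scaled with TMM (trimmed mean of M values). The count covers the whole gene, so transcripts without the floxed part are still counted. Lyz2 was 405-fold lower in Dicer KO than in control macrophages with vehicle and 215-fold lower with LPS, although the titles give both genotypes the same LysM allele. Apoe was at 17.9 ± 1.91 CPM in controls and 5.61 ± 0.610 CPM in Dicer KO macrophages with vehicle, 3.19-fold lower, and at 4.24 ± 0.622 and 1.20 ± 0.270 CPM with LPS, 3.52-fold lower (adjusted p = 3.49e-09 and 9.03e-07, edgeR), although both genotypes are labelled ApoE-/-. The genotype groups thus differ in Lyz2 and Apoe RNA as well as in Dicer1. In the comparisons below, the Dicer1 deletion cannot be told apart from other differences between these groups. All 8 macrophage markers were at 1 CPM or more in each group. Among the vehicle libraries, control replicate 3 and Dicer KO replicate 2 each stood apart from their group. Their read counts differed from those of the group's other libraries by chi-square values per degree of freedom of 7.87 to 13.2, against 2.21 to 2.43 between the remaining libraries of the same groups.

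RIG-I and MDA5 are helicases that bind double-stranded RNA in the cytosol and signal through MAVS, an adaptor on the mitochondrial surface, to induce type I interferon. LGP2 lacks the signalling domains of its relatives and tunes their activity, DDX60 is a helicase reported to promote RIG-I signalling, and TRIM65 is a ubiquitin ligase that acts on MDA5. PKR is a kinase that binds double-stranded RNA and phosphorylates the initiation factor eIF2 to stop translation, and ADAR edits adenosine to inosine in double-stranded RNA, which keeps self RNA from being sensed.

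In the GRCm38 annotation, Ddx58 (ENSMUSG00000040296) lies at chr4:40203773-40239828 on the minus strand and Ifih1 (ENSMUSG00000026896) at chr2:62595798-62646255 on the minus strand. Dhx58 (ENSMUSG00000017830) lies at chr11:100694884-100704271 on the minus strand and Ddx60 (ENSMUSG00000037921) at chr8:61928087-62038244 on the plus strand. Mavs (ENSMUSG00000037523) lies at chr2:131234063-131248025 on the plus strand and Trim65 (ENSMUSG00000054517) at chr11:116121846-116131128 on the minus strand. Eif2ak2 (ENSMUSG00000024079) lies at chr17:78852564-78882573 on the minus strand and Adar (ENSMUSG00000027951) at chr3:89715022-89753446 on the plus strand. Of these, Ddx58, Ifih1, Mavs and Ddx60 share no exon base with another annotated gene.

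The promoter windows of the sensors were read for the interferon-stimulated response element, the DNA motif bound by the interferon-activated factor ISGF3, because 6 of the genes moved together across the 4 groups. RefSeq (GRCm38.p6) supplied 8 windows for 6 of the genes, each running from 250 bases before to 50 bases after an annotated start. Dhx58 and Trim65 have no entry in that table. The letters GAAANNGAAA, searched on both strands, occurred 5 times in 4 of the 8 windows, those of the 4 genes Ddx58, Ifih1, Eif2ak2 and Ddx60. Of all 32851 mouse promoter windows of that length, 3.44% held them. The sites are printed 5′ to 3′ on the strand of each gene, with the motif in capitals, since these are the letters the 4 induced genes share.
Ddx58 (chr4:40239804-40239833, minus strand): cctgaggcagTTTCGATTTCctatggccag
Ifih1 (chr2:62646206-62646235, minus strand): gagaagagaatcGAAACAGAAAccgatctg
Eif2ak2 (chr17:78882535-78882564, minus strand): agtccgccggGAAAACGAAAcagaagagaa
Ddx60 (chr8:61927987-61928086, plus strand): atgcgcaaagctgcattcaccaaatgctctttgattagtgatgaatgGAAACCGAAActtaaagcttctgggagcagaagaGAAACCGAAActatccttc

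The Ddx60 stretch held the same 10 letters, GAAACCGAAA, in 2 places, first at base -53 and again at base -19 from the start. In Ddx58 the motif read on the opposite strand, with its first base at position 3 after the start. In Ifih1 and Eif2ak2 it began 33 and 19 bases after the start. None of the 3 Adar windows held GAAANNGAAA. The shorter letters GAAANNGAA, which every GAAANNGAAA match also contains, occurred in the most downstream Adar window and in 8.56% of all windows. That window held it in 2 places, at base -249 and at base 34 from the start. The second, which lies after the start like the Ifih1 and Eif2ak2 sites, is shown for comparison with the 4 genes.
Adar (chr3:89730738-89730767, plus strand): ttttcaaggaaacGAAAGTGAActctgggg

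The Mavs window held neither form, which says only that these letters are not in that window. The letters TTCNNNGAA occurred in 2 genes, Eif2ak2 and the same Adar window, and in 8.3% of all windows. A match of letters is a description and not evidence of binding.

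Without LPS, 6 of the 8 genes were higher in Dicer KO than in control macrophages, by 2.30-fold to 4.04-fold, and the ranges of the 2 groups did not overlap for any of the 6. The set did not move as a whole. The sensors Ddx58, Ifih1 and Dhx58, the helicase Ddx60, and the double-stranded RNA binding enzymes Eif2ak2 and Adar rose, whereas the adaptor gene Mavs and the ligase gene Trim65 did not pass the test. Across all 13837 genes tested, 46.2% were called, 25% higher and 21.2% lower, in the same comparison. The share of all genes whose ranges did not overlap was not counted, here or below. Lack of overlap is therefore only a description of the genes named. The median log2 fold change was 1.68 over the 8 genes and 0.01 over all genes. In bulk RNA a difference in the number of cells of a type and a difference in RNA per cell cannot be told apart.

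Ddx58 was at 77.7, 86.6 and 89.3 CPM in the control libraries with vehicle and at 366, 272 and 338 CPM in the Dicer KO libraries with vehicle. The lowest Dicer KO library, replicate 2, was still above the highest control library. Ddx58 rose 3.85-fold (log2 fold change 1.94 ± 0.09 SE, adjusted p = 3.43e-11, edgeR quasi-likelihood test with Benjamini-Hochberg adjustment over all genes, as throughout).

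Ifih1, which encodes the sensor of long double-stranded RNA, was at 46.3, 46.9 and 53.9 CPM in the control and at 194, 143 and 183 CPM in the Dicer KO libraries. Its groups did not overlap, and Dicer KO replicate 2 was again the lowest of its group. Ifih1 rose 3.54-fold (log2 fold change 1.82 ± 0.09, adjusted p = 3.44e-10). Dhx58, the third helicase of the family, was at 60.1, 62.1 and 69.3 CPM in control and at 242, 192 and 243 CPM in Dicer KO libraries. These values did not overlap, and the rise was 3.54-fold (log2 fold change 1.82 ± 0.08, adjusted p = 1.35e-11).

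Ddx60 varied least among the control libraries, with 28.0, 28.0 and 27.4 CPM, and was at 128, 91.8 and 117 CPM in the Dicer KO libraries. It had the largest fold change of the 8 genes, 4.04-fold (log2 fold change 2.01 ± 0.09, adjusted p = 2.61e-10). Among all 6 genes that rose, Dicer KO replicate 2 was the lowest library of its group. That library is also one of the pair that stood apart. Without that pair of libraries the log2 fold changes were 2.10 for Ddx58, 2.02 for Ifih1, 1.99 for Dhx58 and 2.13 for Ddx60, each larger than with all libraries.

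The antiviral kinase gene Eif2ak2 was at 55.1, 56.7 and 60.4 CPM in control and at 182, 144 and 171 CPM in Dicer KO libraries with vehicle. It rose 2.89-fold without overlap (log2 fold change 1.53 ± 0.07, adjusted p = 2.56e-11). The editing enzyme gene Adar was at 101, 105 and 107 CPM in control and at 261, 205 and 255 CPM in Dicer KO libraries. Its rise of 2.30-fold was the smallest of the 6 (log2 fold change 1.20 ± 0.07, adjusted p = 3.25e-10), and its groups did not overlap either. These reads do not separate the interferon-inducible start of Adar from its other starts, since the files give 1 count for the whole gene.

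Mavs was at 55.5, 54.7 and 44.7 CPM in control and at 47.3, 44.6 and 43.6 CPM in Dicer KO libraries with vehicle. The groups overlapped through control replicate 3, the other library that stood apart. The log2 fold change of -0.19 ± 0.08 did not pass the test (95% interval -0.35 to -0.04, adjusted p = 0.0558). Without control vehicle replicate 3 it was -0.29 and passed (adjusted p = 0.00125). Trim65 was at 20.7, 23.7 and 23.1 CPM in control and at 18.1, 21.2 and 20.0 CPM in Dicer KO libraries. Its values overlapped as well (log2 fold change -0.19 ± 0.09, 95% interval -0.37 to -0.02, adjusted p = 0.0815). Without control vehicle replicate 1 it was -0.25 and passed (adjusted p = 0.0444).

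**Figure D1:**
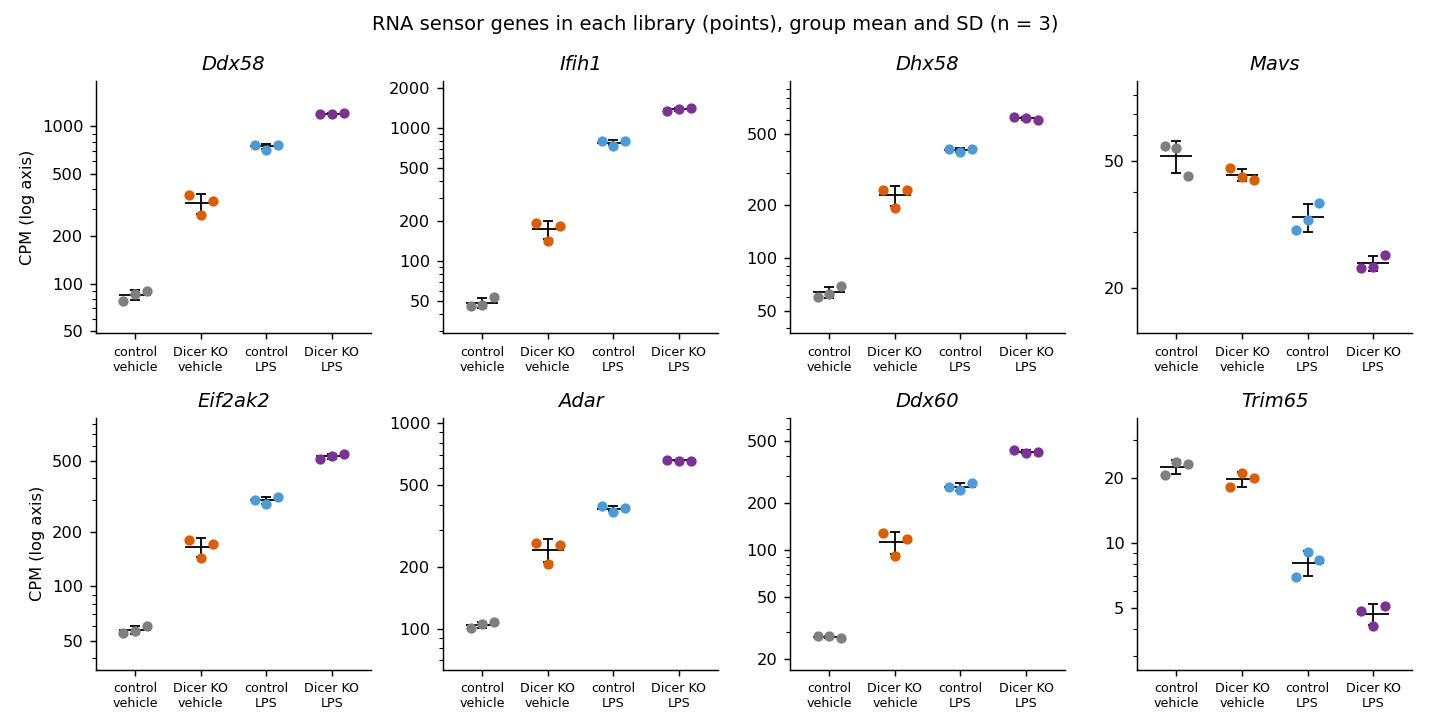
Each panel shows 1 gene, with CPM on a log axis against the 4 groups. Points are the 3 libraries, and the horizontal and vertical lines are the group mean and SD. In 6 panels the groups climb from control vehicle through Dicer KO vehicle and control LPS to Dicer KO LPS, while Mavs and Trim65 descend, with overlapping vehicle groups.

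With LPS, all 8 genes differed between genotypes and no pair of groups overlapped, though the share of all genes without overlap was not counted. The same 6 genes were higher in Dicer KO macrophages, by 1.51-fold to 1.77-fold, and Mavs and Trim65 were lower. Of all genes tested, 55.8% were called, 28.8% higher and 27% lower, in this comparison, and the median log2 fold change was 0.72 over the 8 genes against -0.03 over all genes.

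Ddx58 was at 761, 713 and 765 CPM in control and at 1208, 1203 and 1215 CPM in Dicer KO libraries with LPS. The 3 Dicer KO libraries lay close together and above every control library. The rise was 1.62-fold (log2 fold change 0.70 ± 0.08, adjusted p = 1.63e-06). Ifih1 was at 803, 740.3 and 801 CPM in control and at 1345, 1393 and 1416 CPM in Dicer KO libraries with LPS. Its groups did not overlap, and it rose 1.77-fold (log2 fold change 0.83 ± 0.09, adjusted p = 6.59e-07).

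Dhx58 was at 414, 395 and 413 CPM in control and at 625, 617 and 604 CPM in Dicer KO libraries with LPS. Its difference of 1.51-fold was the smallest of the 6 (log2 fold change 0.59 ± 0.07, adjusted p = 2.51e-06). Ddx60 was at 254, 241 and 271 CPM in control and at 439.6, 418 and 423 CPM in Dicer KO libraries. The groups were apart, with a log2 fold change of 0.74 ± 0.09 (adjusted p = 2.38e-06).

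Eif2ak2 was at 302, 285 and 313 CPM in control and at 509, 532 and 540.1 CPM in Dicer KO libraries with LPS, a rise of 1.76-fold (log2 fold change 0.81 ± 0.07, adjusted p = 1.48e-08). Adar was at 392, 369.8 and 384 CPM in control and at 661, 655 and 652 CPM in Dicer KO libraries, a rise of 1.72-fold (log2 fold change 0.78 ± 0.07, adjusted p = 2.50e-08). Both enzymes had groups that did not overlap.

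The adaptor gene Mavs went the other way, with 30.3, 32.8 and 36.9 CPM in control and 23.1, 23.3 and 25.4 CPM in Dicer KO libraries with LPS. Every Dicer KO library was below every control library, and Mavs fell 1.39-fold (log2 fold change -0.48 ± 0.09, adjusted p = 0.000276). Trim65 was at 6.94, 9.02 and 8.31 CPM in control and at 4.81, 4.13 and 5.12 CPM in Dicer KO libraries with LPS. It fell 1.73-fold without overlap (log2 fold change -0.79 ± 0.14, adjusted p = 7.32e-05).

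The size of the LPS comparisons depends on the scaling. With library totals in place of TMM, the median log2 fold change of all genes between genotypes with LPS moved from -0.03 to -0.38. The 8 genes kept their directions and their calls on that scale. The rises were then smaller, with log2 fold changes of 0.24 for Dhx58, 0.34 for Ddx58, 0.39 for Ddx60, 0.43 for Adar, 0.46 for Eif2ak2 and 0.47 for Ifih1. Mavs was then at -0.83 and Trim65 at -1.14.

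LPS itself raised the same 6 genes and lowered Mavs and Trim65 in both genotypes. In control macrophages all 8 genes were called, 6 of them higher, where 79.1% of all genes tested were called, 38% higher and 41.1% lower. In Dicer KO macrophages all 8 were called with the same directions, where 80.1% of all genes were called, 37.4% higher and 42.7% lower. The genotype comparison with vehicle and the LPS comparison in control share the control vehicle libraries, so their values are set side by side and not related to each other.

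Ifih1 had the largest rise of the set with LPS in both genotypes, with TMM and with library totals. It rose 15.9-fold in control (log2 fold change 3.995 ± 0.10, adjusted p = 8.64e-16) and 7.98-fold in Dicer KO macrophages (3.00 ± 0.09, adjusted p = 1.55e-14). Ddx60 rose 9.17-fold in control and 3.80-fold in Dicer KO macrophages, and Ddx58 rose 8.82-fold and 3.71-fold. Dhx58 rose 6.39-fold in control and 2.72-fold in Dicer KO macrophages.

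Of the enzymes, Eif2ak2 rose 5.23-fold in control and 3.18-fold in Dicer KO macrophages, and Adar 3.66-fold and 2.73-fold. Mavs fell 1.55-fold in control (adjusted p = 1.58e-06) and 1.89-fold in Dicer KO macrophages (adjusted p = 2.73e-08). Trim65, which acts on MDA5, fell 2.78-fold in control (adjusted p = 1.37e-10) and 4.20-fold in Dicer KO macrophages (adjusted p = 7.32e-12). Ifih1 and Trim65 therefore moved in opposite directions in both LPS comparisons and in the genotype comparison with LPS.

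With library totals in place of TMM all 8 genes kept these directions and calls, but the sizes of the LPS responses moved, most in Dicer KO macrophages. There the log2 fold changes were 2.25 for Ifih1 (3.00 with TMM), 1.18 for Ddx60 (1.93), 1.14 for Ddx58 (1.89) and 0.70 for Dhx58 (1.45). They were 0.92 for Eif2ak2 (1.67), 0.70 for Adar (1.45), -1.66 for Mavs (-0.92) and -2.82 for Trim65 (-2.07), so that Trim65 had the largest change of the 8 on that scale. In control macrophages they were 3.47 for Ifih1, 2.67 for Ddx60, 2.62 for Ddx58, 2.15 for Dhx58, 1.86 for Eif2ak2, 1.35 for Adar, -1.15 for Mavs and -1.99 for Trim65.

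**Figure D2:**
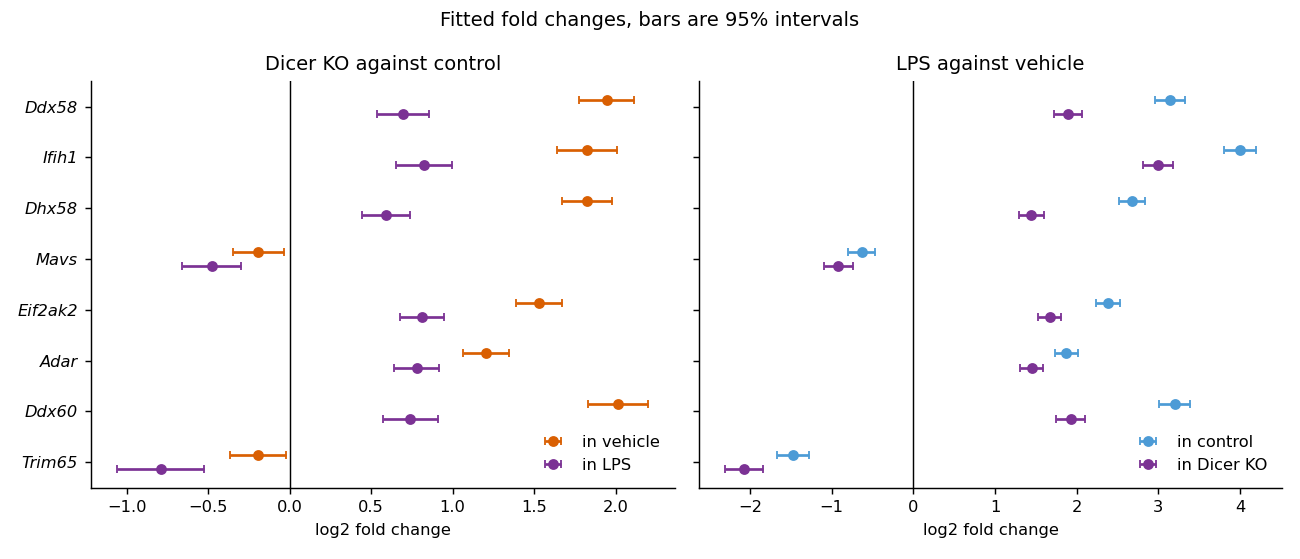
The x axes show log2 fold changes from the fit to all 12 libraries, for Dicer KO against control on the left and LPS against vehicle on the right, and each row is 1 gene. Points are estimates and bars are 95% intervals. For the 6 genes that rose, the estimates with vehicle (1.20 to 2.01) lie to the right of those with LPS (0.59 to 0.83).

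The fold response to LPS differed between genotypes for 7 of the 8 genes, and for all 7 the difference was negative, where 33.7% of all genes tested were called in the interaction, 18.8% lower and 14.9% higher. A negative value here means a smaller fold rise in Dicer KO macrophages for the 6 induced genes and a larger fall for Trim65. It was -1.27 ± 0.13 on the log2 scale for Ddx60 (adjusted p = 2.56e-06), -1.25 ± 0.12 for Ddx58 (adjusted p = 7.27e-07), -1.23 ± 0.11 for Dhx58 (adjusted p = 2.15e-07) and -0.999 ± 0.13 for Ifih1 (adjusted p = 2.07e-05). For the enzymes it was -0.72 ± 0.10 for Eif2ak2 (adjusted p = 2.59e-05) and -0.42 ± 0.10 for Adar (adjusted p = 0.00278). Trim65 was at -0.60 ± 0.16 (adjusted p = 0.00839). Mavs had -0.29 ± 0.12 and did not pass (adjusted p = 0.0829). Without control vehicle replicate 1 it was -0.34 (adjusted p = 0.0485), and without control LPS replicate 1 -0.35 (adjusted p = 0.0414).

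The resting level in Dicer KO macrophages lay between the control levels without and with LPS for all 6 induced genes. As a share of the control level with LPS it was 62.9% for Adar, 55.4% for Dhx58, 55.2% for Eif2ak2, 44.0% for Ddx60, 43.6% for Ddx58 and 22.2% for Ifih1. Every Dicer KO vehicle library was below every control LPS library for each of the 6, with TMM and with library totals. With library totals the shares were 82.7% for Adar, 72.8% for Dhx58, 72.6% for Eif2ak2, 57.9% for Ddx60, 57.3% for Ddx58 and 29.2% for Ifih1.

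In CPM rather than on the log scale, the gap between genotypes for Ifih1 was 125 ± 15.7 CPM (SE) with vehicle and 603 ± 29.4 CPM with LPS, and that gap was also wider with LPS when library totals were used (143 and 275 CPM). For Ddx58 the gap was 241 ± 28.1 and 462 ± 17.2 CPM with TMM but 278 and 182 CPM with library totals. Dhx58, Eif2ak2, Adar and Ddx60 changed order in the same way, wider with LPS under TMM and narrower under library totals. The log2 interaction was negative under both scalings for all 6.

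Levels were compared between genes only per kilobase of exon. In control macrophages with vehicle, Dhx58 was highest at 19.5 ± 1.48 CPM per kilobase, followed by Mavs at 15.4 ± 1.80. Adar at 12.9 ± 0.401, Ddx58 at 11.99 ± 0.859 and Eif2ak2 at 11.2 ± 0.535 CPM per kilobase came next, and neighbours among these 3 overlapped in range. Ifih1 at 6.00 ± 0.520, Trim65 at 3.83 ± 0.273 and Ddx60 at 3.20 ± 0.0403 CPM per kilobase were lowest and did not overlap. By this measure the adaptor was above RIG-I, MDA5 and PKR transcripts only in that group.

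In Dicer KO macrophages with vehicle the order was Dhx58 at 69.0, Ddx58 at 46.2, Eif2ak2 at 32.4, Adar at 29.6, Ifih1 at 21.3, Mavs at 13.5, Ddx60 at 12.9 and Trim65 at 3.35 CPM per kilobase. Only Eif2ak2 with Adar and Mavs with Ddx60 overlapped as neighbours. With LPS the order was Dhx58, Ddx58, Ifih1, Eif2ak2, Adar, Ddx60, Mavs and Trim65 in both genotypes. In Dicer KO macrophages with LPS, Ddx58 at 171 and Ifih1 at 169.6 CPM per kilobase overlapped, and no other neighbours did.

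The ratio of Ifih1 to Ddx58 per kilobase was 0.501 ± 0.0292 in control and 0.460 ± 0.00699 in Dicer KO macrophages with vehicle, and 0.904 ± 0.00729 and 0.990 ± 0.0242 with LPS (SD, n = 3). The 2 LPS groups lay above the 2 vehicle groups without overlap. The ratio of sensor to adaptor, Ddx58 to Mavs, was 0.788 ± 0.145 in control vehicle, 3.41 ± 0.450 in Dicer KO vehicle, 10.7 ± 1.08 in control LPS and 24.0 ± 1.12 in Dicer KO LPS. These 4 ranges did not overlap. With vehicle, Eif2ak2 to Adar was 0.873 ± 0.0185 in controls and 1.10 ± 0.0263 in Dicer KO macrophages, without overlap. With LPS that ratio was 1.25 ± 0.0399 in control and 1.28 ± 0.0471 in Dicer KO, and those ranges overlapped.

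**Figure D3:**
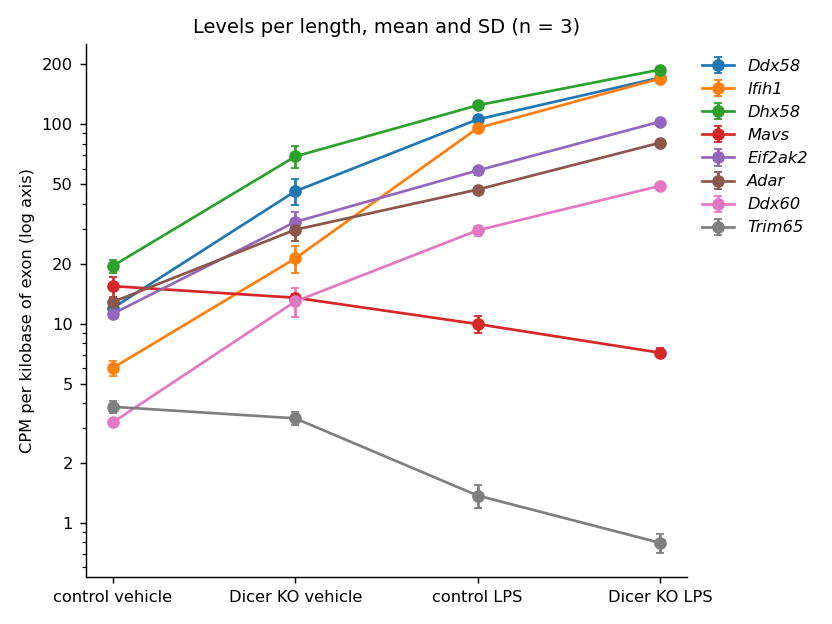
The y axis is CPM per kilobase of exon on a log scale and the x axis the 4 groups, with 1 line for each gene, and points and bars are the mean and SD of 3 libraries. Mavs is second of 8 in control vehicle at 15.4 and seventh in both LPS groups, at 9.96 and 7.16, while Dhx58 is first in all 4 groups.

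Exons of 4 of the genes overlap exons of other annotated genes, and how the counting treated strand is not given here. If strand was not used, reads of a gene and of its opposite partner cannot be told apart over the shared bases. For Dhx58, 4.31% of exon bases (141 bases) are shared with the antisense gene Dhx58os. Dhx58os had means of 7.89, 31.8, 55.8 and 84.9 CPM in control vehicle, Dicer KO vehicle, control LPS and Dicer KO LPS, the same order as Dhx58. For Eif2ak2, 3.40% is shared with the antisense gene Gm26637, with 4.96, 12.3, 18.6 and 28.5 CPM, and 0.919% with n-R5s29, which stayed at 1.83 CPM or below on average in each group.

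The largest overlap was that of Adar, with 16.8% of its exon bases (1365 bases) on the opposite strand of Chrnb2, which encodes a subunit of a neuronal acetylcholine receptor. Chrnb2 was at 27.9, 57.5, 78.5 and 158 CPM in the 4 groups. Its log2 difference between genotypes was 1.04 ± 0.09 with vehicle and 1.01 ± 0.08 with LPS, and the interaction did not pass (-0.03 ± 0.12, adjusted p = 0.857), whereas that of Adar did. Trim65 shares 3.82% of its exon bases (225 bases) with Trim47 on the same strand. Trim47 was at 31.3, 31.2, 3.86 and 1.80 CPM, so both genes were lower with LPS, but only with LPS did Trim47 differ between genotypes by the test (-0.01, adjusted p = 0.962 with vehicle, and -1.09, adjusted p = 0.000354 with LPS). How much of each member's count comes from the shared bases was not tested.

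**Figure D4:**
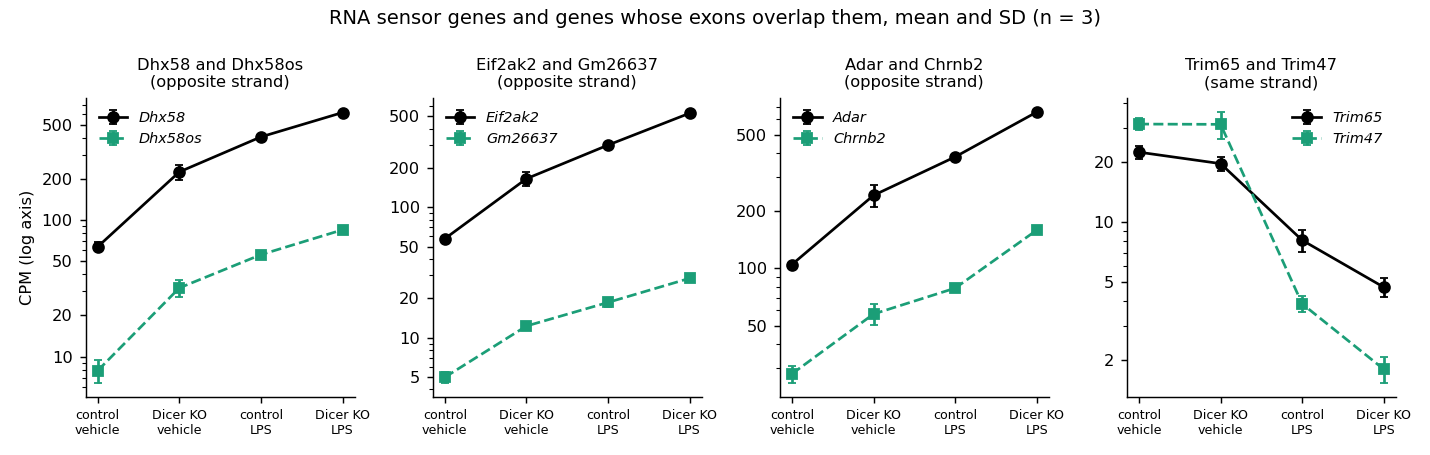
Each panel shows 1 of the 4 genes with an overlapping partner, with CPM on a log axis against the 4 groups, and points and bars are the mean and SD of 3 libraries. Solid lines are the RNA sensing genes and dashed lines the partners. Dhx58os, Gm26637 and Chrnb2 climb across the 4 groups in the same order as their partners, and Trim47 drops from 31.2 to 3.86 CPM between Dicer KO vehicle and control LPS.

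Genes with the most similar pattern were found by the root mean square difference between log2 CPM values over the 4 group means, each centred on its own mean, among 9175 genes with a mean of at least 5 CPM. Within the set, Ddx58 and Ddx60 were the closest pair, 0.03 apart, and Eif2ak2 was closest to Dhx58 at 0.13. Ifih1 was 0.48 from its nearest member, Ddx60. Mavs and Trim65 were nearest to each other, also 0.48 apart. Outside the set, the nearest genes were Ifi203 (0.05) and Lgals9 (0.07) for Ddx58, Ifi209 (0.18) and Atp10a (0.19) for Ifih1, and Dhx58os (0.05) and Fcgr1 (0.08) for Dhx58. They were Tpst1 (0.03) and Parp14 (0.05) for Eif2ak2, Trafd1 (0.05) and Pnpt1 (0.06) for Adar, and Parp12 (0.06) and Ifi204 (0.06) for Ddx60. For Mavs they were AW554918 (0.0088) and Uqcc3 (0.02), and for Trim65 Iqce (0.03) and Ogg1 (0.04). Dhx58os is the antisense gene that shares exon bases with Dhx58, and whether reads of the shared bases enter its pattern was not tested. With only 4 group means behind each distance, many genes can come close by pattern alone.

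The genes around the sensors were described by lists, each read against the shares of all genes given above. With TMM these were 25% higher and 21.2% lower with vehicle, and 28.8% and 27% with LPS. With library totals, 2229 of 13837 genes were higher and 4577 lower with vehicle, and 1885 and 7626 with LPS. Of the interferon pathway genes downstream of MAVS, 6 of 8 were higher in Dicer KO macrophages with vehicle and 6 of 8 with LPS, and none lower, with medians of 0.51 and 0.63 on the log2 scale. With library totals in place of TMM, 6 were higher and 1 lower with vehicle, and 5 higher and 2 lower with LPS. Stat2, which encodes a part of the factor that interferon activates, rose by 1.96 ± 0.09 on the log2 scale with vehicle, from 127 to 497 CPM. Irf9, also of that factor, rose by 0.65 ± 0.05 with vehicle and 0.78 ± 0.05 with LPS. The receptor gene Ifnar2 (-0.01 with vehicle and 0.07 with LPS), Jak1 (0.10 with vehicle) and Ifnar1 (-0.07 with LPS) did not pass. Ifnb1, which encodes interferon beta, had no read in control vehicle and means of 0.300, 0.419 and 2.00 CPM in Dicer KO vehicle, control LPS and Dicer KO LPS. Ifnb1 is among the 6 called higher in each comparison. Its reads were few in the other groups, and it passed the filter on low counts only through Dicer KO LPS, where it is high. Its calls are therefore no support for the count.

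Of 28 genes of MAVS signalling, 16 were higher and 2 lower in Dicer KO macrophages with vehicle, and 15 higher and 2 lower with LPS, with median log2 fold changes of 0.18 and 0.23. With library totals the LPS counts were 9 higher and 13 lower. Irf7, the transcription factor that amplifies interferon production, rose by 2.37 ± 0.10 on the log2 scale with vehicle, from 148 to 768 CPM, and its interaction was -1.53 ± 0.13. March5, a mitochondrial ubiquitin ligase, rose by 1.03 ± 0.07 with vehicle and 1.10 ± 0.07 with LPS. Azi2, an adaptor of the kinase TBK1, rose by 0.81 ± 0.07 with vehicle, and Casp8 by 0.96 ± 0.06 with LPS.

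Of 17 regulators of the receptors, 8 were higher and 3 lower with vehicle, and 10 higher and 4 lower with LPS, with medians of 0.07 and 0.31. Zc3hav1, an RNA-binding antiviral protein gene, rose by 0.62 ± 0.06 and 0.78 ± 0.06 on the log2 scale, and Rnf135, whose ubiquitin ligase acts on RIG-I, by 0.66 ± 0.08 and 1.22 ± 0.07. Trim25, another ligase of RIG-I, was at 474, 461, 423 and 849 CPM in control vehicle, Dicer KO vehicle, control LPS and Dicer KO LPS, with an interaction of 1.04 ± 0.12 (adjusted p = 7.43e-06), opposite in sign to that of Ddx58.

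Of 22 other RNA-binding and RNA-sensing genes, 14 were higher and 3 lower with vehicle, and 11 higher and 4 lower with LPS, with medians of 0.28 and 0.22. With library totals the LPS counts were 6 higher and 10 lower. Zbp1, which senses Z-form nucleic acid, rose by 2.86 ± 0.13 on the log2 scale with vehicle, against 2.01 for Ddx60, the largest value among the 8 genes, and its interaction was -2.20 ± 0.17. Tlr7, an endosomal RNA receptor gene, rose by 0.90 ± 0.06 and 0.93 ± 0.06. Stau1, a double-stranded RNA binding protein gene, rose by 0.87 ± 0.05 with LPS.

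Around PKR, 8 of 18 genes of the eIF2 branch were higher and 1 lower in Dicer KO macrophages with vehicle, and 5 were higher and 6 lower with LPS, with medians of 0.14 and -0.06. The counts with LPS are near the shares of all genes, 28.8% higher and 27% lower. The 9 genes called with vehicle became 3 without control vehicle replicate 1 and 4 without Dicer KO vehicle replicate 2. Ddit3, a transcription factor of the stress response, was at 22.5 CPM in control and 42.6 CPM in Dicer KO macrophages with vehicle (0.92 ± 0.07 on the log2 scale). Ppp1r15b, a subunit of the phosphatase that reverses eIF2 phosphorylation, rose by 0.60 ± 0.05 with vehicle and 0.84 ± 0.05 with LPS, and 11.4% of its exon bases lie opposite another gene. With LPS, Ppp1r15a, its inducible relative, rose by 0.87 ± 0.06, while Eif2ak3, which encodes the eIF2 kinase PERK, fell by 1.08 on the log2 scale. Genes on the opposite strand cover 8.05% of the exon bases of Eif2ak3 and 4.73% of those of Ddit3, and genes on the same strand cover 6.13% of those of Ddit3. Among 19 genes that mark or remove self RNA, 5 were higher and 2 lower with vehicle, and 7 higher and 3 lower with LPS (medians 0.04 and 0.06). Of all genes, 25% were higher with vehicle, and the 5 of 19 self RNA genes are near that share. With library totals 2 were higher and 12 lower with LPS. With TMM the genes called higher included Pnpt1 (1.11 ± 0.09 and 0.87 ± 0.08 on the log2 scale) and Xrn1 (0.49 ± 0.06 and 0.72 ± 0.06).

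The direction of some of these lists changed with the scaling, whereas that of the 8 genes did not. All genes shifted too. With library totals in place of TMM, their median log2 fold change went from -0.03 to -0.38 with LPS and from 0.01 to -0.12 with vehicle. The list medians are to be read against those medians. With library totals, the median log2 fold change with LPS was negative for the receptor regulators (-0.05, against 0.31 with TMM), MAVS signalling (-0.13, against 0.23), the other RNA-binding genes (-0.13, against 0.22) and the self RNA genes (-0.30, against 0.06). It remained positive for the interferon genes (0.28, against 0.63) and negative for the eIF2 branch (-0.41, against -0.06). With vehicle, the sign changed for the receptor regulators (-0.06, against 0.07) and the self RNA genes (-0.09, against 0.04). The balance of calls moved as well. For all 13837 genes it was 2229 higher and 4577 lower with vehicle and library totals, and 1885 and 7626 with LPS. With vehicle and library totals it was 5 higher and 5 lower for the receptor regulators, 7 and 4 for MAVS signalling, 10 and 4 for the other RNA-binding genes, 2 and 3 for the eIF2 branch, and 5 and 3 for the self RNA genes. With LPS it was 6 higher and 7 lower for the receptor regulators, 9 and 13 for MAVS signalling, 6 and 10 for the other RNA-binding genes, 2 and 13 for the eIF2 branch, and 2 and 12 for the self RNA genes.

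**Figure D5:**
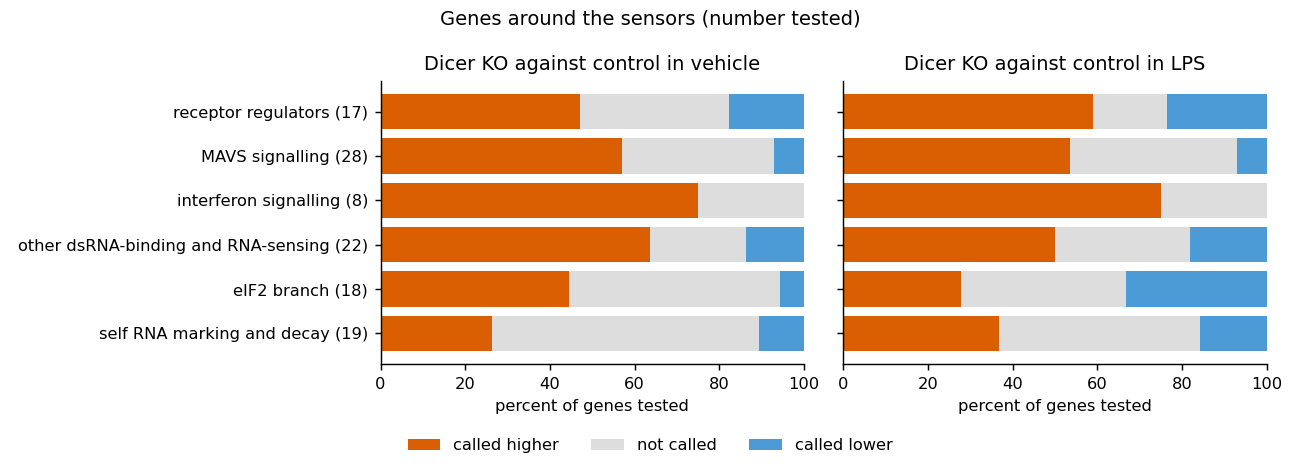
Bars show the percent of genes tested in each list that were called higher, not called or called lower in Dicer KO against control, with vehicle on the left and LPS on the right, and the number tested in parentheses. With TMM, the interferon genes have 6 of 8 called higher in both panels, Ifnb1 with its few reads among them. The eIF2 branch has 8 of 18 called higher with vehicle and 5 of 18 with LPS. Of all genes tested, 25% and 28.8% were called higher.

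Among markers of other cell types, those of dendritic cells were low, but their summed level followed the order of the induced sensors over the groups. The summed level of 7 dendritic cell markers ran from 1.30 to 1.75 CPM in controls and from 2.73 to 4.56 CPM in Dicer KO macrophages with vehicle. With LPS it ran from 8.17 to 9.83 CPM and from 19.4 to 20.6 CPM. Xcr1, a marker of conventional dendritic cells, had means of 0.301 and 1.59 CPM in control and Dicer KO macrophages with vehicle and of 1.498 and 7.14 CPM with LPS. Ccr7 was at 0.355, 0.736, 5.16 and 9.07 CPM and Ccr9 at 0.178, 0.193, 1.32 and 2.96 CPM in the same order. The other 4 markers of the list, Flt3, Zbtb46, Clec9a and Siglech, had means under 0.5 CPM in every group. None of those 4 followed the order of the induced sensors, and Xcr1 was not higher in control LPS than in Dicer KO vehicle. The sum of the 8 neutrophil markers was 84.7 to 111, 79.9 to 105, 138 to 149 and 148 to 168 CPM in the same order, and that of the macrophage markers 11084 to 11743, 11831 to 13048, 12440 to 13100 and 15421 to 15759 CPM. The macrophage markers did not move together. With LPS, the means of Mpeg1, Fcgr1, Cd68 and Mertk were higher in Dicer KO macrophages, and those of Csf1r, Adgre1, Itgam and Cd14 lower. Mpeg1 had the largest level of the list, at 4140 CPM in control LPS and 6299 CPM in Dicer KO LPS. Fcgr1 is also a pattern neighbour of Dhx58. The summed markers of B, T and NK, mast, stromal and erythroid cells reached at most 5.06 CPM in any library. The part of these markers in the differences of the sensor genes was not tested.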

How the data were processed

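Per the labels' protocols, the 12 libraries were made with a kit for stranded mRNA. STAR 2.5 and DESeq2 are named in the submitters' processing notes, as are the builds mm10 and GRCm38.p5. The files deposited by the authors hold whole-number read counts per Ensembl gene, with no normalization. Which program counted the reads, whether it used strand, and which annotation it used is not given in the sources here. Of all reads, 41.7 to 43.3% were assigned to genes, 45.8 to 46.8% fell on no feature, 0.626 to 0.768% were ambiguous and 9.85 to 11.6% did not align uniquely. These classes were left out of library sizes and tests. Of the 46078 identifiers, 45143 matched GENCODE M21, which gave symbols, exon lengths and GRCm38 coordinates, and the unmatched held 0.141% of counts.

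Counts were fitted with edgeR 4.0.16 (R 4.3.3). filterByExpr kept 13837 genes, libraries were scaled by TMM, and a robust quasi-likelihood model with a mean for each of the 4 groups was fitted over the 12 libraries (biological coefficient of variation 6.30%). The 5 comparisons were Dicer KO against control at each treatment, LPS against vehicle for control and for Dicer KO, and the interaction. Genes were called at a two-sided Benjamini-Hochberg adjusted p under 0.05 over all genes within a comparison. On counts simulated for the genotype comparison with vehicle, 99.5% of 200 genes changed 2-fold among 13444 were recovered. The changed genes were drawn from those with higher mean counts, and all genes were given the same spread. The share recovered therefore does not apply to genes with few reads or to libraries that stand apart. Alternatives were DESeq2 1.42.0, library totals in place of TMM, no filter, only the groups compared, the replicate number as a block, and leaving out libraries. Replicate numbers were not used as pairs. Correlations of same-numbered libraries ran from -0.232 to 0.182, and the labels give no shared animal or day.

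The 8 genes and all lists were chosen with earlier results of these data known. The named list genes are among the 3 with the smallest adjusted p in a genotype comparison or the 2 in the interaction, plus genes not called in short counts. Pattern neighbours were the 2 nearest named genes, with 0.5 CPM added before taking logs and predicted genes left out. Sequences are RefSeq promoter windows. Intervals (95%) are normal intervals from the SE, not adjusted for the number of genes.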

Additional observations from a re-analysis of the deposited data

Results flagged for a closer look

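The fold response to LPS differed between control and Dicer KO macrophages, by the interaction test, for 7 of the 8 genes, where 33.7% of all genes tested were called. The differences on the log2 scale were -1.25 for Ddx58, -0.999 for Ifih1, -1.23 for Dhx58, -1.27 for Ddx60, -0.72 for Eif2ak2, -0.42 for Adar and -0.60 for Trim65. Dixon's test for a single outlying library was not applied to groups of 3.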

How the results depend on the processing

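Of 712 log2 fold changes of the 8 genes over all alternatives, 700 kept their direction and their side of the threshold, 12 gained a call, and none lost one or reversed. The 12 concern Mavs and Trim65 with vehicle and the Mavs interaction. Mavs with vehicle passed with library totals (-0.32), without the filter (-0.23), without control vehicle replicate 3 (-0.29) and without both libraries that stood apart (-0.28). Trim65 with vehicle passed with library totals (-0.32), without the filter (-0.22), without control vehicle replicate 1 (-0.25) and without both libraries (-0.22). The Mavs interaction passed with library totals (-0.51), without the filter (-0.26), and after leaving out replicate 1 of control vehicle (-0.34) or of control LPS (-0.35). The cause was not tested. Genes called ranged from 5254 to 6950 with vehicle, 6979 to 9511 between genotypes with LPS, 10586 to 11803 and 10735 to 12260 for LPS in control and Dicer KO, and 4021 to 6133 in the interaction. With the replicate block, 6, 8, 8, 8 and 7 of the 8 genes were called in the 5 comparisons, as without it, and 6310 genes in the vehicle comparison against 6394. Library totals moved the split of all calls. It went from 3459 higher and 2935 lower to 2229 and 4577 with vehicle, from 3983 and 3741 to 1885 and 7626 between genotypes with LPS, from 5258 and 5690 to 3066 and 8737 for LPS in control, from 5173 and 5905 to 2637 and 9623 for LPS in Dicer KO, and from 2067 and 2602 to 997 and 5136 in the interaction. The medians of all genes were then -0.12, -0.38, -0.58, -0.85 and -0.27, against 0.01, -0.03, -0.06, -0.10 and -0.04 with TMM. Leaving out a library leaves 2 in its group, with the spread shared over all groups. Trim65, with as few as 4.13 CPM in a library, has the least depth behind its values.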
